A study of Mus musculus with 9 samples.

Results

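Azurophil granule genes of early granulocytes were followed as a set of 6 genes chosen by symbol, Mpo, Elane, Prtn3, Ctsg, Ms4a3 and Ctsc, out of 23337 genes in the counts. The set was chosen with earlier results of these data known, so counts of members beside shares of all genes are a description. All 6 passed the filter on low counts, which 12553 genes passed. RNA-seq was performed on CD11b+ cells selected from the bone marrow of 9 male C57BL/6 mice, 3 per group, and each library was from 1 mouse. PBS mice received 3 tail vein injections of vehicle at 48 h intervals. EnzR EVs mice received, on the same days, extracellular vesicles (EVs, 10 µg of protein in 100 µl) from CWR-R1 prostate cancer cells resistant to enzalutamide, an androgen receptor antagonist. EnzR EVs + HDL NPs mice received those vesicles and, on alternating days beginning the day before, high-density lipoprotein-like nanoparticles (HDL NPs), synthetic particles that bind the lipoprotein receptor SR-B1. The HDL NPs were given in 3 further tail vein injections, and no vehicle injection on those days is described for the other groups. The number of injections therefore cannot be told apart from the HDL NPs. The HDL NP dose is 1 µM in the labels and 100 µM in the methods. Mice were 3 to 6 weeks old and bone marrow was taken 24 h after the last injection. The vesicles came from 1 human cell line, and the study had no RNA-seq group with HDL NPs alone or with other vesicles among the samples analysed here. The comparisons ask whether the vesicles altered gene expression in these cells and whether it differed when HDL NPs were also given.

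Azurophil granules are the first granules that a developing neutrophil fills, at the promyelocyte stage, and their genes are silenced as the cell matures while the packed proteins persist. RNA for these genes therefore comes mainly from the immature granulocytes, and to a lesser degree the monocyte precursors, of the marrow. Mpo encodes myeloperoxidase, which makes hypochlorous acid. Elane (neutrophil elastase), Prtn3 (proteinase 3) and Ctsg (cathepsin G) encode serine proteases that are stored active. Ctsc encodes cathepsin C (dipeptidyl peptidase I), which removes the N-terminal dipeptide of those proteases and so activates them, and it is also expressed by many other leukocytes. Ms4a3 encodes a membrane protein of granulocyte-monocyte progenitors and their early progeny, and it is grouped here by cell stage and is not a stored enzyme. CD11b+ cells are a mixture, so fewer cells of a type and less RNA per cell cannot be told apart in these libraries.

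In GENCODE M21 on GRCm38, the assembly also called mm10, the 6 members were protein-coding genes on 5 chromosomes. Mpo lay at chr11:87793581-87804413 on the plus strand, with 15 merged exons. Elane (chr10:79886247-79888215) and Prtn3 (chr10:79874476-79883174) were neighbours on the plus strand, 3072 bp apart. Ctsg lay at chr14:56099881-56102574 and Ms4a3 at chr19:11629496-11640851, both on the minus strand, and Ctsc at chr7:88278085-88310888 on the plus strand. Mpo, Prtn3 and Ctsc each overlapped a gene on the opposite strand (Gm11505, Plppr3 and Gm26522), none of them among the tested genes under that symbol. The libraries were stranded, but the strand setting used for counting was not given in the sources used here.

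The promoters of the members are shown because the genes belong to 1 developmental programme, in which the factor PU.1, encoded by Sfpi1 in these counts, is a known regulator of myeloid genes. The motif searched was GAGGAA on both strands, in windows of 250 bases before to 50 bases after the start site, taken from RefSeq on GRCm38.p6. These start sites differ from the GENCODE starts above in some members, Mpo and Prtn3 among them. The Prtn3 stretch below therefore lies within the GENCODE span of that gene. All 6 member windows held it, against 28.3% of 32851 windows of the same length. These letters were chosen with the sequences in view, so the count is a description and not a test. The stretches upstream of the start site that hold the match are given 5′ to 3′ on the gene's strand, with the match, or its reverse complement TTCCTC, in capitals.
Mpo, chr11:87793534-87793579, plus strand: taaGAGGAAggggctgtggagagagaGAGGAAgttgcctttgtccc
Elane, chr10:79886187-79886246, plus strand: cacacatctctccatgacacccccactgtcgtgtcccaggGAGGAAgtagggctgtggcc
Prtn3, chr10:79879532-79879591, plus strand: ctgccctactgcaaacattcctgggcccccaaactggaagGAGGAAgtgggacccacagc
Ctsg, chr14:56102771-56102824, minus strand: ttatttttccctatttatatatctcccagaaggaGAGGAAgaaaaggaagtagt
Ctsc, chr7:88277849-88277955, plus strand: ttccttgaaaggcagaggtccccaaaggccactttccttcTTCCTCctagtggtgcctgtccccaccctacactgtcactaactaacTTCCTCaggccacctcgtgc

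Counted from the RefSeq start site, the matches began 85 bases upstream in Elane and 95 in Prtn3, the protease genes that neighbour each other. In Mpo they began 247 and 224 bases upstream, in Ctsg 216, and in Ctsc 196 and 149 on the reverse strand. The only match of Ms4a3 lay downstream of its start site. Letters of the other factors searched were in fewer or common windows: the C/EBP half-sites TTNNGNAA were in 1 of 6 member windows (40.7% of all windows), the RUNX core TGTGGT in 1 (16.8%), and the MYB core AACNG in 5 (80.3%). TATAAA was in 1 of 6, against 13.6% of all windows. A match says only that the letters are present, and the absence of a match says nothing about a factor.

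Total counts per library ranged from 2575776 (EnzR EVs replicate 1) to 18110561 (EnzR EVs replicate 2). The share of reads on Rn45s, the precursor of ribosomal RNA, set 3 libraries apart, at 20.3% in PBS replicate 1, 42.7% in EnzR EVs replicate 1 and 14.2% in EnzR EVs replicate 3, against 0.657% to 2.87% in the other 6. The summed level of 5 neutrophil marker genes also differed between libraries, from 6979 CPM (normalised read counts, scaled by TMM factors) in EnzR EVs replicate 1 to 94870 CPM in EnzR EVs + HDL NPs replicate 2. The level of Itgam, which encodes CD11b itself, lay between 1389 CPM in PBS replicate 1 and 2006 CPM in EnzR EVs + HDL NPs replicate 2. The 6 members took from 0.103% to 0.238% of the reads of a library, and their lowest count was 78 reads, for Ctsg in EnzR EVs replicate 1.

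Per length, Mpo and Elane had the highest levels of the set. In PBS mice the level per kb of exon was 301 ± 18.0 CPM per kb for Elane (SD, n = 3) and 297 ± 54.2 for Mpo, which did not differ beyond their spread. Prtn3 followed at 133 ± 29.9 CPM per kb and Ctsg at 101 ± 10.9, and the lowest Prtn3 value, 110, was below the highest Ctsg value, 113. Ms4a3 had 59.8 ± 14.1 and Ctsc 25.6 ± 4.15 CPM per kb, both separate from their neighbours in this order. Mpo and Elane took the first 2 places and Ctsc place 6 in all 9 libraries, while Prtn3, Ctsg and Ms4a3 exchanged places 3 to 5. Exon lengths merge all annotated transcripts, which lowers the value of a gene with several, such as Prtn3 with 6 transcripts against 1 for Elane.

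Mpo, the most abundant member in CPM, was measured at 1209, 838 and 1004 CPM in PBS replicates 1, 2 and 3. In EnzR EVs mice it was 1673, 1065 and 1189 CPM, and in EnzR EVs + HDL NPs mice 1048, 439 and 536 CPM. Every EnzR EVs + HDL NPs mouse was below every EnzR EVs mouse, by a margin of 1048 against 1065 CPM at the nearest pair, while both groups overlapped the PBS range. The 3 highest Mpo levels were those of the 3 libraries with the high Rn45s share, none of them from EnzR EVs + HDL NPs mice. Those libraries also held 2 of the 3 highest levels of Prtn3 and of Elane, 1 of Ctsc, and 0 of Ctsg and Ms4a3. The part of that share in the member levels was not tested.

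Elane was measured at 307, 276 and 306 CPM in the PBS mice, the narrowest spread relative to the mean of any member in any group. It was 165, 334 and 412 CPM in EnzR EVs replicates 1, 2 and 3, and 243, 144 and 206 CPM in EnzR EVs + HDL NPs mice. All EnzR EVs + HDL NPs mice were below all PBS mice, and EnzR EVs replicate 1 was low as well, so the 2 vesicle groups overlapped.

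Prtn3 was measured at 288, 191 and 210 CPM in PBS mice, at 216, 319 and 335 CPM in EnzR EVs mice, and at 196, 123 and 123 CPM in EnzR EVs + HDL NPs mice. The EnzR EVs + HDL NPs mice were all below the EnzR EVs mice, and 1 of them, replicate 1, lay within the PBS range. Ctsg was 101, 94.6 and 116 CPM in PBS, 42.8, 148 and 88.1 CPM in EnzR EVs, and 137, 51.7 and 37.5 CPM in EnzR EVs + HDL NPs mice. Its extremes in both vesicle groups reached beyond the PBS range on either side, so no pair of groups was separate.

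Ctsc, the activator of the proteases, was measured at 176, 133 and 136 CPM in PBS mice, 146, 275 and 170 CPM in EnzR EVs mice, and 216, 164 and 140 CPM in EnzR EVs + HDL NPs mice. Ms4a3, the stage marker, was measured at 83.1, 120 and 134 CPM, then 77.4, 154 and 128 CPM, and 139, 99.1 and 72.9 CPM in the same order of groups. Neither gene separated any pair of groups. Across the 9 mice the members spanned a 2.07-fold (Ctsc) to a 3.94-fold range (Ctsg), with an SD of log2 CPM from 0.35 to 0.73 against a median of 0.38 over all tested genes.

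**Figure D1:**
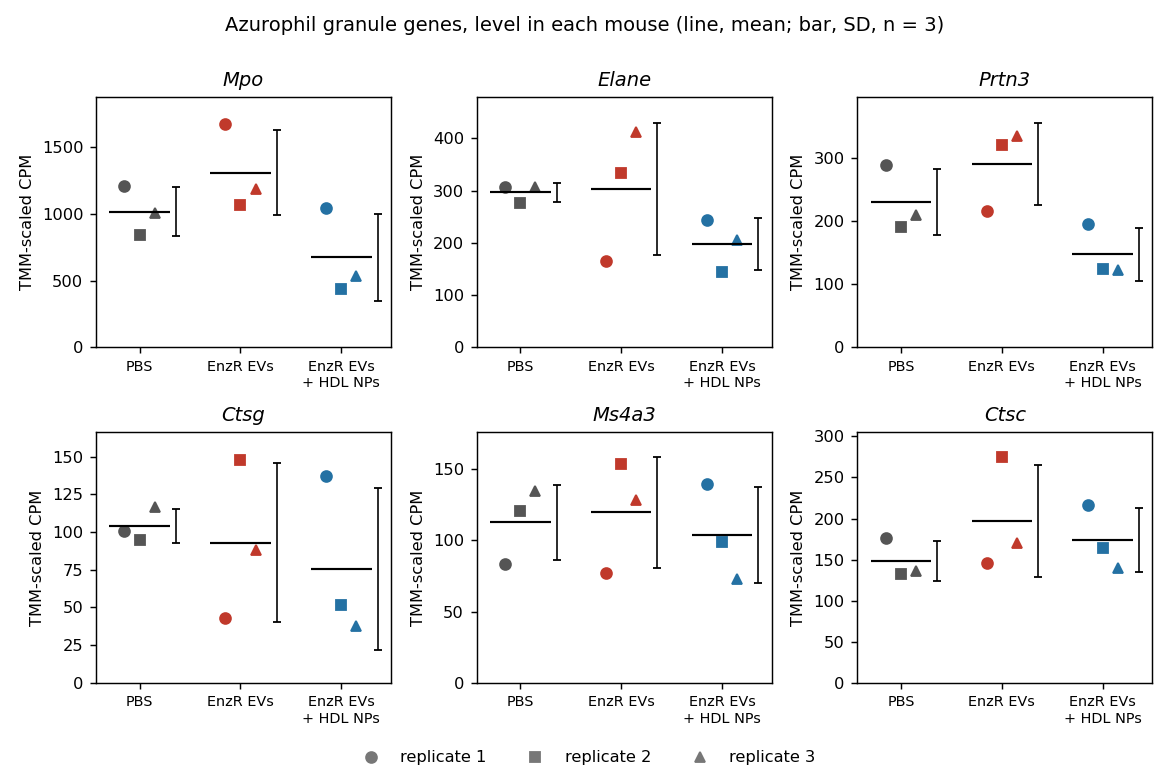
Level of each azurophil granule gene in TMM-scaled CPM (vertical axis, from 0) in each of the 9 mice by group, with the replicate number as the symbol, a line at the mean and a bar for the SD (n = 3). In Mpo and Prtn3 the 3 EnzR EVs + HDL NPs mice lie below the 3 EnzR EVs mice, while in Ctsg, Ms4a3 and Ctsc all groups overlap.

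EnzR EVs against PBS gave no call among the members by edgeR or DESeq2. By edgeR's quasi-likelihood test with Benjamini-Hochberg adjustment over 12553 genes, 0 of the 6 members and 0% of all genes had an adjusted p under 0.05. At an unadjusted p under 0.05 there were 0 members against 3.47% of all genes, DESeq2 called 11 genes (0.0876%) and none of the 6, and 0 members had groups that did not overlap, against 7.96% of all genes. Of the members, 5 of 6 log2 fold changes were above 0, against 46.5% of all genes, at 0.36 for Mpo (SE 0.319), 0.42 for Ctsc (SE 0.257), 0.34 for Prtn3 (SE 0.252), 0.10 for Ms4a3, 0.04 for Elane and -0.14 for Ctsg. Their median was 0.22, beside -0.03 over all tested genes, and the edgeR adjusted p of the members lay between 0.928 and 0.989. The 95% interval of Mpo ran from -0.34 to 1.07 and that of Prtn3 from -0.22 to 0.90. Ctsg was at 0.19 without EnzR EVs replicate 1, Elane at -0.25 without EnzR EVs replicate 3, and Mpo at 0.15 without EnzR EVs replicate 1. Prtn3 was at 0.22 without EnzR EVs replicate 3, at 0.53 without PBS replicate 1 and at 0.72 without the 2 libraries of lowest total. With limma's quality weights Prtn3 was at 0.66 and passed (adjusted p = 0.0226), where 1990 of all tested genes passed. Ctsc was at 0.12 without EnzR EVs replicate 2 and at 1.04 without the 3 libraries of high Rn45s share, which leaves 1 EnzR EVs mouse, replicate 2, the one with the highest Ctsc level.

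Against PBS mice, 5 of 6 members were lower on average in EnzR EVs + HDL NPs mice, against 51.1% of all genes, with a median log2 fold change of -0.52 beside -0.01 over all tested genes. Prtn3 differed by -0.64 (SE 0.253), Mpo by -0.59 (SE 0.319), Elane by -0.59 (SE 0.301), Ctsg by -0.46 and Ms4a3 by -0.12, while Ctsc, at 0.23, was the exception. None passed: 0 members and 0% of all genes had an adjusted p under 0.05 in edgeR's quasi-likelihood test (adjusted p = 1.00 for each member), and DESeq2 called 8 genes (0.0637%) and none of the members. Prtn3 alone had an unadjusted p under 0.05 (edgeR, 0.0285), 1 of 6 lower against 1.12% of all genes lower. Elane alone had groups that did not overlap, 1 of 6 lower against 6.21% of all genes lower (p = 0.10 in a two-sided exact permutation test, and no lower p is possible with 3 mice per group). The size of these differences depended on EnzR EVs + HDL NPs replicate 1, without which Mpo was at -1.05 and Ctsg at -1.21. Without replicate 2 of that group Mpo was at -0.37, Ctsg at -0.26, and Prtn3 at -0.54, and without replicate 3 Ctsg was at -0.14. Ctsc was at 0.044 without replicate 1 of that group and at 0.37 without PBS replicate 1.

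Mpo and Prtn3 showed their largest differences between the vesicle groups. All 6 log2 fold changes of EnzR EVs + HDL NPs mice against EnzR EVs mice were below 0, against 47.2% of all tested genes, and their median was -0.47 beside 0.03 over all tested genes. Prtn3 differed by -0.98 (SE 0.254, 95% interval -1.55 to -0.42), from a mean of 290 ± 64.4 CPM to 147 ± 41.9 CPM (SD, n = 3). Mpo differed by -0.96 (SE 0.321, 95% interval -1.67 to -0.25), from 1309 ± 321 to 674 ± 327 CPM. Both genes, 2 of 6, had an unadjusted edgeR p under 0.05 (0.00287 and 0.0131) and groups that did not overlap, with p = 0.10 in a two-sided exact permutation test. Over all tested genes, 6.97% were lower at an unadjusted p under 0.05, and 8.58% were lower without overlap. After Benjamini-Hochberg adjustment the edgeR p was 0.461 for both, and 0 of the 6 members and 0% of all genes were called. DESeq2 called 1 gene (0.00797%), no member, with an adjusted p of 0.20 for Prtn3 and 0.271 for Mpo.

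The remaining members were further from the threshold in this comparison. Elane differed by -0.63 (SE 0.302, 95% interval -1.29 to 0.04), Ctsg by -0.32 (-1.40 to 0.76), Ms4a3 by -0.22 (-0.88 to 0.45) and Ctsc by -0.19 (-0.76 to 0.38). Without EnzR EVs replicate 2, Ctsg was at 0.15 and Ctsc at 0.11, the reverse sign, and Elane was at -0.34 without EnzR EVs replicate 3. Ms4a3 was at -0.024 without EnzR EVs replicate 2, at -0.034 without EnzR EVs + HDL NPs replicate 3, at -0.45 without EnzR EVs replicate 1 and at -0.49 without EnzR EVs + HDL NPs replicate 1. Mpo was at -1.44 without EnzR EVs + HDL NPs replicate 1, and it stayed below 0 under each of 18 alternative settings, from -1.44 to -0.65, as did Prtn3, from -1.25 to -0.77. Without the 3 libraries of high Rn45s share, which leaves 1 EnzR EVs mouse, Prtn3 was at -1.12 and Mpo at -0.66. With limma's quality weights, which give less weight to libraries that vary more, Mpo, Elane and Prtn3 passed (adjusted p = 0.0474 each), where 653 of all tested genes passed.

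**Figure D2:**
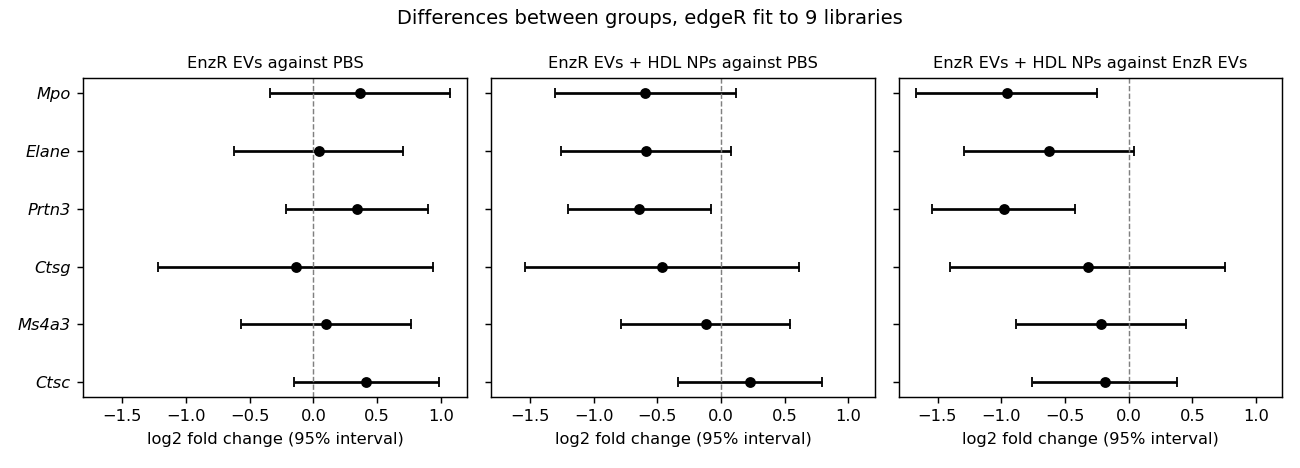
Log2 fold change of each member with its 95% interval (horizontal axis) in the 3 comparisons, from the edgeR fit to 9 libraries; the dashed line marks 0. The intervals of Mpo and Prtn3 lie wholly below 0 in EnzR EVs + HDL NPs against EnzR EVs, and that of Prtn3 does against PBS, while all 6 intervals include 0 in EnzR EVs against PBS.

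The balance between members was examined as the log2 ratio of each to Mpo within a mouse, which cancels the scaling of the library. The ratio of Ctsc to Mpo was higher by 0.89 in EnzR EVs + HDL NPs than in PBS mice, without overlap (two-sided exact permutation test, p = 0.10, adjusted p = 1.00 over 15 comparisons). No ratio passed after adjustment, which the smallest p of 0.10 does not allow. The vesicle groups share the PBS controls and EnzR EVs mice enter 2 of the 3 comparisons, so the values above are not independent of each other.

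Across mice the members varied together in part. Over the 9 mice Pearson's r of log2 CPM was above 0 for all 15 pairs, from 0.15 to 0.85 with a median of 0.52. Prtn3 varied with its neighbour Elane (r = 0.79, exact permutation p = 0.0120, rho = 0.78, p = 0.0172) and with Mpo (r = 0.79, exact permutation p = 0.0129, rho = 0.82, p = 0.0108). Ctsg varied with Ms4a3 (r = 0.85, exact permutation p = 0.00685, rho = 0.88, p = 0.00308). After adjustment over the 15 pairs the smallest p of r was 0.0646, so 0 pairs passed, and by rank 1 pair passed, Ctsg with Ms4a3 (adjusted p = 0.0461). Leaving out the 2 mice farthest from the median of the first gene, which narrows its range, r was 0.92 for Elane and Prtn3, 0.62 for Ctsg and Ms4a3, and 0.23 for Mpo and Prtn3. The last relation was therefore not seen without those 2 mice, which for Mpo were EnzR EVs + HDL NPs replicates 2 and 3. For that pair r was 0.45 with the group means removed, 0.90 without the 2 smallest libraries and 0.89 in the 6 libraries of low Rn45s share.

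Mpo had the lowest correlations with single members over the 9 mice, with r = 0.15 to Ms4a3 (exact permutation p = 0.687, rho = 0.03, p = 0.948) and r = 0.20 to Ctsc (exact permutation p = 0.627, rho = 0.42, p = 0.270). It was highest in EnzR EVs replicate 1, the library in which Ctsg and Elane were near their lowest. With the group means removed, 14 of 15 pairs were above 0, from -0.02 (Mpo and Ms4a3) to 0.88. Leaving out the 2 mice farthest from the median of the first gene of each pair, 11 of 15 were above 0, with a median of 0.25 and a lowest value of -0.74 (Mpo and Ctsg), and Mpo and Ms4a3 were at -0.69. Among the 6 libraries of low Rn45s share all 15 were above 0, from 0.27 to 0.98, with r = 0.91 for Mpo and Elane and r = 0.86 for Mpo and Ms4a3, and there the lowest values were those of Ctsc, from 0.27 with Elane to 0.63 with Prtn3. The 3 libraries of high share held 2 groups only, 1 PBS and 2 EnzR EVs mice, too few for a value of their own.

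The genes most like the set were ranked by Pearson's r over the 9 mice with the members' mean standardised log2 CPM, given as a description. First came Pdia4, a protein disulfide isomerase of the endoplasmic reticulum (r = 0.96, 35.3 to 71.8 CPM), and Thy1 (r = 0.96, but at only 0.419 to 1.86 CPM). Tubb5 (r = 0.95), Dpagt1 (0.94), Ssr2 (0.92), Hp1bp3 (0.92), Sdf2l1 (0.92), Nudt5 (0.92), Hsd17b12 (0.91) and Pold2 (0.90) followed. Dpagt1 starts N-linked glycan assembly, Ssr2 is a subunit of the translocon-associated protein complex, and Sdf2l1 is a resident protein of the endoplasmic reticulum. The members' own r was 0.63 (Mpo) to 0.89 (Ctsg and Prtn3), a value each helped to set, and 63 genes outside the set were above 0.8. These points share library, depth and composition.

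**Figure D3:**
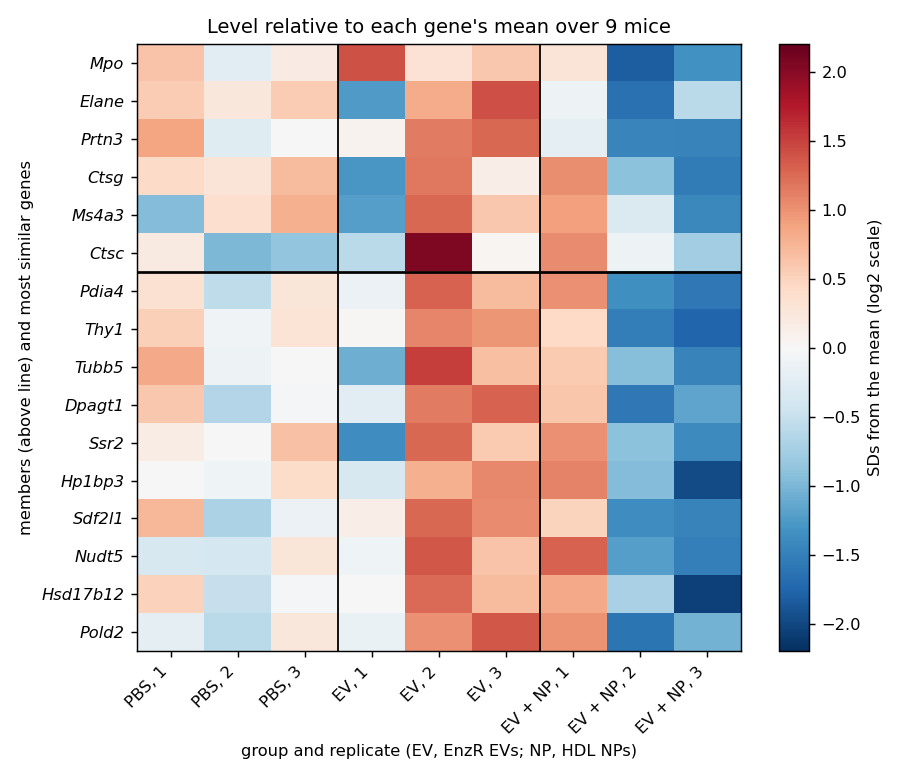
Level of the 6 members (above the line) and of the 10 genes most like them in each mouse, as SDs from the gene's own mean of log2 CPM over 9 mice (colour, red above and blue below). The lowest values of most genes fall in EnzR EVs + HDL NPs replicates 2 and 3 and the highest in EnzR EVs replicates 2 and 3; EnzR EVs replicate 1 is high for Mpo and low for Elane, Ctsg and Ms4a3.

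Other azurophil granule genes did not share the members' direction as a group. Of 24 listed, 22 were tested and none was called in any comparison. In EnzR EVs + HDL NPs against EnzR EVs, 11 of the 22 were lower and 11 higher, with a median of -0.0029. The most abundant of them were Lyz2 (lysozyme), Ctsd (cathepsin D) and Man2b1 (lysosomal alpha-mannosidase), which many myeloid cells express. Their log2 fold changes were 0.41, -0.08 and 0.18. EnzR EVs replicate 1 had the lowest summed level of this list, 7225 CPM, against 14197 and 10854 CPM in the other EnzR EVs mice. Lyz2 was at 3702 CPM there, against 9528 and 6736 CPM in those mice. Prss57, the fourth neutrophil serine protease, and Cd63, a tetraspanin of the granule membrane, are named after their values were seen, as the only 2 of the 22 with an unadjusted edgeR p under 0.05 in that comparison. Both were lower, beside 6.97% of all tested genes, and 6 of the 22 were lower without overlap, beside 8.58%.

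Prss57 was at 43.3, 27.3 and 29.8 CPM in PBS mice, 75.2, 36.7 and 49.4 CPM in EnzR EVs mice and 27.7, 20.5 and 20.4 CPM in EnzR EVs + HDL NPs mice. The vesicle groups did not overlap, with a log2 fold change of -1.20 (SE 0.284, edgeR unadjusted p = 0.00152, adjusted p = 0.461). Cd63 was at 66.2, 49.0 and 48 CPM, then 96.6, 46.6 and 86.9 CPM, and 35.7, 36.7 and 40.7 CPM in the same order of groups. It differed by -1.01 between the vesicle groups (SE 0.260, edgeR unadjusted p = 0.00278, adjusted p = 0.461), again without overlap. As with Mpo, the 3 highest levels of both genes were those of the 3 libraries of high Rn45s share, and the part of that share was not tested.

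The regulators of the early granulocyte programme were 11 tested genes, of which none was called. Cebpa, needed for granulocyte commitment, was lower in EnzR EVs + HDL NPs than in EnzR EVs mice by 1.04 on the log2 scale (edgeR unadjusted p = 0.0317), with overlap. Cebpb, a C/EBP factor of emergency granulopoiesis, differed by -1.80 (0.0220) and Myc, a driver of proliferation, by -1.95 (0.0327), with overlap in both. The 3 highest levels of each of these 3 regulators were again those of the 3 libraries of high Rn45s share, led by EnzR EVs replicate 1 at 209 CPM for Cebpa, 1422 CPM for Cebpb and 104 CPM for Myc, and the part of that share was not tested. The edgeR adjusted p was at least 0.461 for each of these 3 genes. Sfpi1, which encodes PU.1, differed by 0.02 and lay between 163 and 310 CPM over the 9 mice. In the same comparison Myb differed by 0.13, Cbfb by 0.14, Runx1 by -0.36, Gfi1 by -0.03, Irf8 by -0.25, Cebpe by 0.37 and Csf3r, the G-CSF receptor, by 0.44.

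Genes of later granules and of the cell's other compartments were set beside the members. Of 17 specific and gelatinase granule genes, which are made after the azurophil genes, 12 were higher and 5 lower in EnzR EVs + HDL NPs against EnzR EVs, with a median of 0.11. Ltf (lactoferrin) differed by 0.27, Ngp by 0.10 and Camp by 0.01. EnzR EVs replicate 1 had the lowest summed level of these granule genes, 33330 CPM, against 70797 and 60103 CPM in the other EnzR EVs mice. There Ltf was at 8523 CPM against 19328 and 16162 CPM, and Ngp at 9208 CPM against 15029 and 14969 CPM. Of 20 cell cycle genes, 6 were higher and 14 lower, with a median of -0.16, and 6 were lower at an unadjusted edgeR p under 0.05 (Cdk1, Mcm7, Birc5, Rrm2, Ube2c and Cdc20), beside 6.97% of all tested genes. Mcm7, Birc5, Rrm2 and Ube2c had their 3 highest levels in the 3 libraries of high Rn45s share. Over the 9 mice the mean log2 CPM of the cell cycle list followed the members' mean standardised level more closely than that of the other 15 lists (r = 0.88, rho = 0.93), points that share library, depth and composition. Mki67, the most abundant, went the other way at 0.54, Top2a was at -0.19 and Rrm2 at -0.56. Of 12 serpin and cystatin genes, inhibitors of the granule proteases and cathepsins, 10 were higher and 2 lower, with Serpinb1a, an inhibitor of elastase and cathepsin G, at 0.55, Slpi at -0.21 and Cst3 at 0.17. EnzR EVs replicate 1 had the lowest level of 10 of these 12 genes, with a summed level of the list of 533 CPM against 843 to 1425 CPM in the other 8 libraries, and Serpinb1a was at 128 CPM there against 618 and 340 CPM in the other EnzR EVs mice. No gene of these lists was called.

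Of the other cells that the CD11b selection can hold, basophils and mast cells and eosinophils had their lowest summed markers in 2 mice with low member levels. The summed level of 6 basophil and mast cell genes, cells that also carry granule proteases, was 234, 109 and 118 CPM in PBS mice, 212, 91.1 and 80.6 CPM in EnzR EVs mice, and 157, 34.1 and 33.8 CPM in EnzR EVs + HDL NPs mice. The 2 lowest were the 2 mice with the lowest Mpo and Prtn3 levels. Prss34 made up much of the sum, and 4 of the 6 genes were higher on average in EnzR EVs + HDL NPs than in EnzR EVs mice, Fcer1a by 1.09 and Cpa3 by 0.71 on the log2 scale, both of which were lowest in EnzR EVs replicate 1. Summed eosinophil markers (7 genes) were 1550 and 1832 CPM in those mice, against 2217 to 3669 CPM in the other 7, a sum made up mostly of Prg2 (1017 and 1243 CPM in those mice). The list as a whole was not lowest there, with a mean log2 CPM of 6.17 and 6.25 against 5.30 in PBS replicate 1 and 4.61 in EnzR EVs replicate 1, and Ear1 and Epx were lowest in the latter 2 libraries. Summed monocyte markers (6 genes) ranged from 1308 to 2532 CPM, and the groups overlapped. All 6 were higher on average in EnzR EVs + HDL NPs than in EnzR EVs mice (median log2 fold change 0.33), as were all 5 tested neutrophil markers (median 0.44). The neutrophil sum was highest, 94870 CPM, in EnzR EVs + HDL NPs replicate 2, and both sums were lowest in EnzR EVs replicate 1. Of these marker genes and the neutrophil markers, those at 0 in a library were 1 eosinophil gene and 1 basophil and mast cell gene, both in EnzR EVs replicate 1. The part of these cells in the member levels was not tested.

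**Figure D4:**
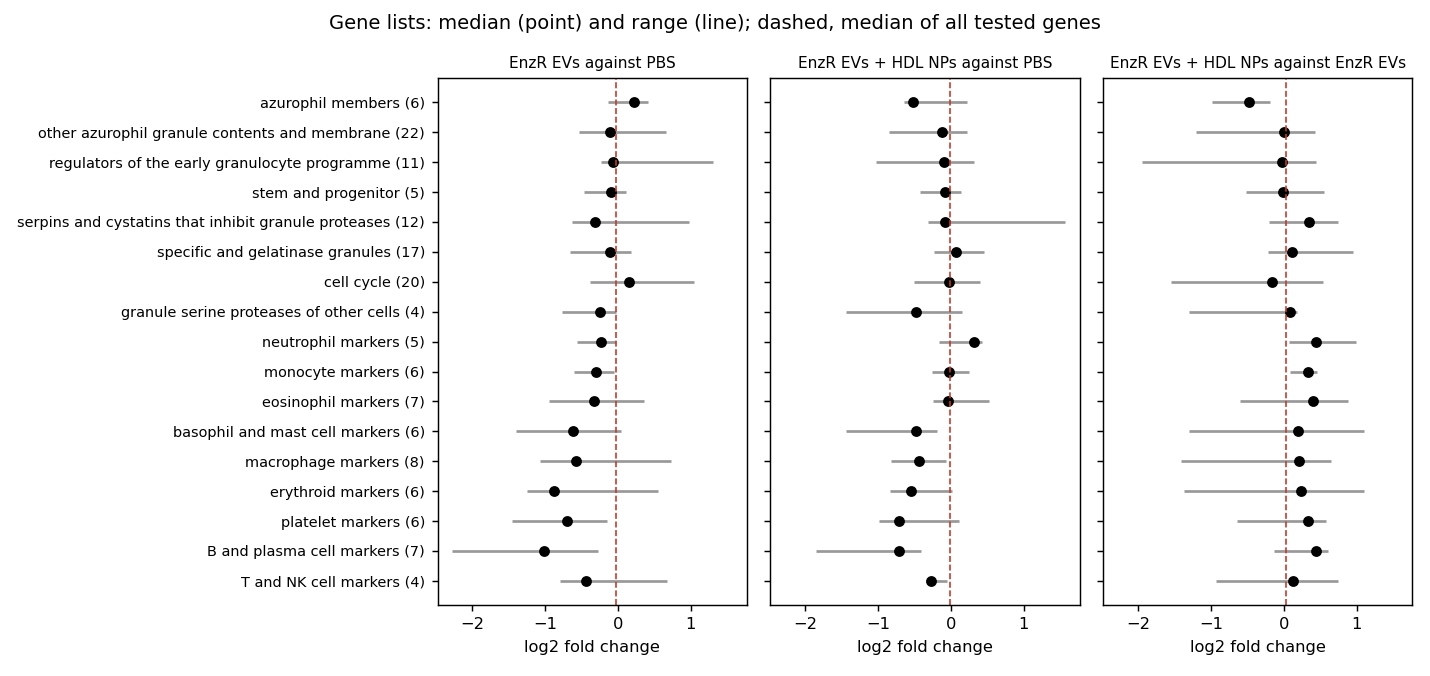
Median (point) and range (line) of the log2 fold changes of the members and of 16 other gene lists in the 3 comparisons, with the number of tested genes in brackets and a dashed line at the median of all tested genes. In the right panel the members have a median of -0.47. The median of the 22 other azurophil granule genes is -0.0029 and that of the 17 specific and gelatinase granule genes 0.11. Both of the latter lists had their lowest summed level in EnzR EVs replicate 1.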

How the data were processed

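Per the paper's methods and the labels, stranded total RNA libraries depleted of rRNA were sequenced as 75 bp single-end reads, trimmed (cutadapt 1.13), aligned to mm10 with STAR and counted per gene with HTSeq 0.6.1p1. What the authors deposited is 1 table of read counts per library, raw and not normalised. RNA extraction is given as Trizol in the labels and as RNeasy in the methods. Nothing more is said of the replicates than that each is a mouse.

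The main analysis used edgeR 4.0.16 under R 4.3.3 (TMM, filterByExpr, robust quasi-likelihood fit to all 9 libraries, 1 coefficient per group), with Benjamini-Hochberg adjustment over 12553 genes and a threshold of 0.05. Log2 CPM used a prior count of 2. DESeq2 1.42.0 and limma 3.58.1 were alternatives, and the fits were tested on simulated data. The study's own test was DESeq2. Exact permutation tests were two-sided. Lengths and coordinates came from GENCODE M21, matched by symbol for 11347 of 12553 genes (90.4%).

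Totals were 2575776 to 18110561 reads, and 3 counts correspond to 0.160 to 1.65 CPM. The latter values are a scale for low counts and do not measure an error. Reads carry no molecular identifiers, so duplicates cannot be told from separate molecules. PBS replicates 2 and 3, the most alike pair within a group, differed by more than sampling noise (chi-square 3.85 per gene). The other pairs within a group ranged from 23.1 per gene (EnzR EVs + HDL NPs replicates 1 and 2) to 425 (EnzR EVs replicates 1 and 2). In all, 0 libraries were left out or unmapped. Members and gene lists were chosen with earlier results of these data known. Named genes are the members, every regulator, the 3 most abundant tested genes of a list described by name, and the 10 genes most like the members; other genes were named after their values were seen.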

Additional observations from a re-analysis of the deposited data

How the results depend on the processing

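The 18 log2 fold changes of the members were computed under 324 alternatives: 305 kept direction and call, 15 reversed and 4 became calls. The cause of each difference below was not tested. Genes called in EnzR EVs against PBS were 0 in the edgeR analysis, 11 with DESeq2, 1990 with limma's quality weights, 1 without the filter, 1 with the replicate block, 0 to 2 leaving out each mouse (2 without PBS replicate 1), 5 without the 2 libraries of lowest total and 10 without the 3 libraries of high Rn45s share, a choice made after seeing the data that leaves 1 EnzR EVs mouse, assumed to vary like the other groups. EnzR EVs + HDL NPs against PBS gave 8 with DESeq2 and 10 with quality weights. Between the vesicle groups there were 1 with DESeq2, 653 with quality weights, and 1 each with only the 6 libraries compared, without the 2 of lowest total and without the 3 of high Rn45s share. Quality weights called 1 member in EnzR EVs against PBS (Prtn3, 0.66, adjusted p = 0.0226) and 3 between the vesicle groups (Mpo -1.06, Elane -1.02, Prtn3 -1.21).

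In EnzR EVs against PBS, Elane was at -0.027 with voom, at -0.073 with library size only and at -0.25 to 0.34 leaving out each mouse, Ms4a3 at -0.045 with library size only and at -0.095 to 0.33, and Ctsg at 0.17 without the 2 libraries of lowest total, 0.49 without the 3 of high Rn45s share and -0.61 to 0.19. In EnzR EVs + HDL NPs against PBS, Ms4a3 was at -0.38 to 0.081 leaving out each mouse. Between the vesicle groups, Ctsc was at 0.012 with library size only and at -0.39 to 0.11 leaving out each mouse, and Ctsg at -1.08 to 0.15. Over all 18 alternative settings of that comparison, Ctsc ranged from -0.67 to 0.11 and Ms4a3 from -0.57 to -0.02. Library size only moved the median of all tested genes to -0.18 in EnzR EVs against PBS and 0.24 between the vesicle groups. Correlated member pairs past the threshold were 0, but 1 by rank, 2 with library size only and 4 without the 2 libraries of lowest total. Same-numbered mice did not deviate together in every pair (r from -0.18 to 0.49), so the replicate block pairs numbers only. It called no member.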
